A study of Mus musculus with 6 samples.

Results

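The erythroid miRNAs mmu-miR-144, mmu-miR-451 and mmu-miR-486 were examined as a gauge of the red blood cell RNA in each liver of a mouse model of Wnt/β-catenin-dependent hepatocarcinoma. They were chosen by name from the NanoString panel, any arm, which gave 3 of its 566 mouse miRNA entries, 1 for each name. RNA came from fresh frozen liver of 3 *Apcfl/fl* mice, which carry a hypomorphic floxed *Apc* allele in both copies and had HCC, and of 3 *Apc+/+* mice, labelled healthy controls. All 6 mice were on the C57Bl/6 background. The labels name no Cre and no treatment in either group, and age, sex, tumour content of the sample and flushing of blood from the livers are not given in the sources used here. In the NanoString assay single molecules are captured by colour-coded probes and counted without amplification. The livers held 82942 to 133331 mouse miRNA counts each, and 174 entries with a mean of at least 20 counts were tested, the 3 erythroid miRNAs among them. The hepatocyte miRNA miR-122 was counted 6688 to 29686 times in the 6 livers, while 0 of the 7 muscle entries reached the test.

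Mature red blood cells have no nucleus but keep a store of small RNA that is dominated by a few miRNAs. The factor GATA1 switches on the miR-144 and miR-451 genes as a single primary transcript when red cell precursors mature, and miR-486 is made from within an intron of *Ank1*, the gene of a red cell membrane skeleton protein. Liver is rich in blood, so whole-liver RNA carries these miRNAs from the red cells in its vessels and sinusoids, and in bulk tissue more red cells and more RNA per red cell cannot be told apart. MiR-144 acts on the antioxidant factor Nrf2 and miR-451 on the adaptor 14-3-3ζ, and both shape how red cells withstand oxidative stress. MiR-486 is also made in heart and skeletal muscle.

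RefSeq sequences on assembly GRCm38.p6 matched 2 of the 3 miRNAs. They are shown because the pair shares a transcript but no seed, and because miR-451 is built unlike other miRNAs. The panel entry for miR-144 carries no arm in its name, and its accession, MIMAT0000156, is the one that the miRNA registry gives to the 3p arm. Capitals mark the seed, bases 2 to 8 of the mature miRNA, through which targets are recognised.
mmu-miR-144-3p: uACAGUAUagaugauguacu
mmu-miR-451a: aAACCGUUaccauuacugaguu
mmu-miR-101a-3p: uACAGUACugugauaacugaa
The seeds of miR-144 and miR-451 differ, and 0 of the other mature miRNAs in the RefSeq table share either one over bases 2 to 8. Over bases 2 to 7 the only other match for miR-144 was miR-101a, a miRNA abundant in hepatocytes, and there was none for miR-451.

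The genes of both lie in 1 cluster on the plus strand, Mir144 at chr11:78073005-78073070 and Mir451a at chr11:78073170-78073241, with 99 bases between the hairpins. In the hairpins below capitals mark the mature miRNA.
Mir144 hairpin: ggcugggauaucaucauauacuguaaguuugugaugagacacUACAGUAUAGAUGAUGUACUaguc
Mir451a hairpin: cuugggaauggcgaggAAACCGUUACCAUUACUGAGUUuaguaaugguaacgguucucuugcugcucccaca
Mature miR-451 takes bases 17 to 38 of its 72-base hairpin and runs from the 5′ arm across the loop, since the stem is too short for Dicer and is cut by Argonaute 2 instead. Mature miR-144-3p takes bases 43 to 62 of a 66-base hairpin and stays on 1 arm. RefSeq also lists Mir451b on the opposite strand over the Mir451a hairpin, and Mir486 and Mir3107, which carry the older names mir-486a and mir-486b, at overlapping positions. A single panel entry stands for miR-486, so these copies could not be separated.

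MiR-451 (MIMAT0001632) was the most abundant of the 3 by counts on its own probe. In *Apc+/+* mice 1 to 3 it was counted 539, 495 and 871 times, and *Apcfl/fl* mice 1 to 3 gave 667, 3593 and 1452 deposited counts. It ranked between 20 and 27 among the mouse miRNAs of a liver, except in *Apcfl/fl* mouse 2, where it ranked 5. After TMM scaling, which sets the libraries to a common level of the bulk of the miRNAs, the *Apc+/+* values were 680.2, 607.7 and 1070, while *Apcfl/fl* liver had 599.99, 3806 and 953.4. One liver, from *Apcfl/fl* mouse 2, stood 3.56 times above the next highest, and the other *Apcfl/fl* livers lay within or just under the *Apc+/+* range.

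MiR-144 (MIMAT0000156) was counted 246, 173 and 234 times in *Apc+/+* mice 1 to 3, while *Apcfl/fl* mice 1 to 3 gave 197, 616 and 335 counts. The normalised counts were 310.5, 212.4 and 287.4 against 177.2, 652.4 and 219.95. *Apcfl/fl* mouse 2 was again the highest, 2.10 times above the next liver, while *Apcfl/fl* mouse 1 was the lowest of all.

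MiR-486 (MIMAT0003130) was scarce, with 14.67, 29.67 and 37.67 counts in *Apc+/+* mice 1 to 3, while *Apcfl/fl* mice 1 to 3 had 20.67, 97.67 and 39.67. Background was judged by the probes for viral miRNAs, whose mean plus 2 SD set a limit between 13.1 and 27.8 counts in the livers. MiR-486 exceeded that limit in 4 livers and lay under it in *Apc+/+* mouse 1 and *Apcfl/fl* mouse 1, while miR-144 and miR-451 exceeded it in all 6. Its normalised counts were 18.5, 36.4 and 46.3 against 18.6, 103.4 and 26.0. *Apcfl/fl* mouse 2 was the highest here too, 2.24 times above the next liver.

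**Figure D1:**
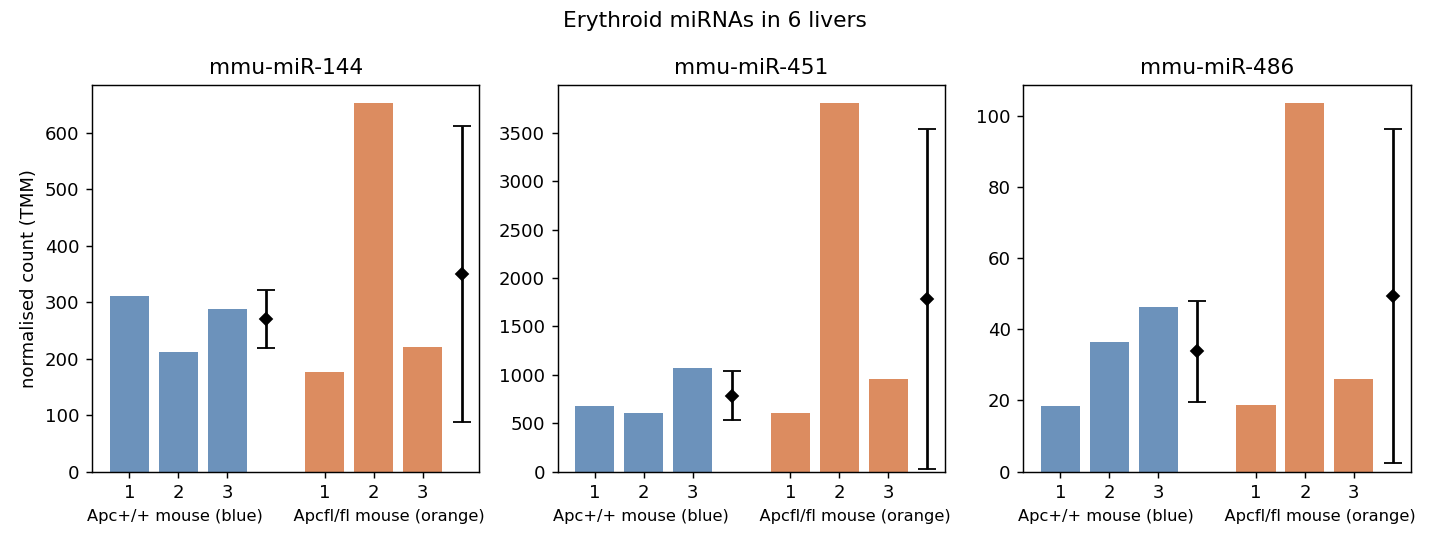
TMM-normalised counts (y axis, own scale in each panel, from 0) of the 3 miRNAs in each liver (x axis, mouse number), with diamonds and bars for the mean ± SD of the 3 livers of a genotype. *Apcfl/fl* mouse 2 is the highest liver in every panel, and the other *Apcfl/fl* livers lie near or under the *Apc+/+* livers.

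Whether the *Apcfl/fl* livers differed from the *Apc+/+* livers was tested with edgeR's quasi-likelihood method over all 174 miRNAs. None of the 3 erythroid miRNAs passed an adjusted p-value of 0.05, nor did any other tested miRNA (0%), while 13.8% of the tested miRNAs were higher at an unadjusted p-value under 0.05, none of them among the 3. For miR-451 the mean normalised count of *Apc+/+* liver was 785.9 ± 248.6 (SD, n = 3), and that of *Apcfl/fl* liver was 1786 ± 1758 (SD, n = 3). The fitted log2 fold change was 1.18 (standard error 0.67, 95% interval -0.41 to 2.77, edgeR adjusted p = 0.33), a 2.27-fold difference whose interval ran from 0.752-fold to 6.84-fold. MiR-144 averaged 270.1 ± 51.3 (SD, n = 3) and 349.9 ± 262.9 (SD, n = 3), with a log2 fold change of 0.37 (standard error 0.50, 95% interval -0.82 to 1.56, edgeR adjusted p = 0.70). MiR-486 averaged 33.7 ± 14.1 (SD, n = 3) and 49.4 ± 47.0 (SD, n = 3), with a log2 fold change of 0.51 (standard error 0.70, 95% interval -1.15 to 2.17, edgeR adjusted p = 0.71).

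The groups overlapped for each of the 3, whereas 14.9% of the tested miRNAs were higher in *Apcfl/fl* liver without overlap. In two-sided exact permutation tests of the normalised log2 counts, p was 0.7 for miR-451, 0.9 for miR-144 and 0.8 for miR-486, where 3 mice against 3 cannot go below 0.1. The differences between genotypes were thus within the spread between mice. The intervals are wide, and a change of miR-451 of up to 6.84-fold in the mean could not be told from none.

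The spread itself differed in size between the genotypes, with no test made of it. Each *Apcfl/fl* SD includes *Apcfl/fl* mouse 2, the highest liver for all 3 miRNAs. *Apcfl/fl* mice 1 and 3 had normalised counts of 599.99 and 953.4 (miR-451), 177.2 and 219.95 (miR-144) and 18.6 and 26.0 (miR-486). The SD of the log2 level of miR-451 was 0.43 among the *Apc+/+* and 1.38 among the *Apcfl/fl* livers, where the median over all tested miRNAs was 0.37 and 0.48. For miR-144 it was 0.29 and 1.002, and for miR-486 0.64 and 1.25. Among the 174 tested miRNAs the 3 ranked 21 (miR-451), 24 (miR-486) and 30 (miR-144) by their SD in *Apcfl/fl* liver, and 70, 43 and 109 in *Apc+/+* liver. The SD in *Apcfl/fl* liver was 33.5 times (miR-451), 12.2 times (miR-144) and 5.19 times (miR-486) the SD expected from the counts alone. In *Apc+/+* liver it was 7.30, 2.90 and 2.14 times, so counting error weighed more there.

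*Apcfl/fl* mouse 2 weighed on every fold change: without it miR-451 was level and the other two turned negative. MiR-451 then stood at 0.03 on the log2 scale (standard error 0.32, 95% interval -0.71 to 0.77, edgeR adjusted p = 0.97), an interval of 0.613-fold to 1.70-fold. The liver left out was the highest for each of these miRNAs, so this interval does not bound the difference between the genotypes. MiR-144 stood at -0.39 (standard error 0.27, edgeR adjusted p = 0.41) and miR-486 at -0.51 (standard error 0.50, edgeR adjusted p = 0.59). The scaling between libraries moved the values less. With the total count as library size, which is weighed by the single entry miR-720 (33.0% of the counts of *Apc+/+* mouse 3 and 15.7% to 25.7% in the other livers), miR-451 reached 1.52 with an unadjusted p of 0.018 in edgeR's test, but the median of all tested miRNAs rose to 0.45 as well. Its distance from the median of all tested was 1.07, where TMM gave 1.17. Leaving miR-720 out of the total changed little: miR-451 stood at 1.51 (unadjusted p = 0.036 in edgeR's test) and the median at 0.39.

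**Figure D2:**
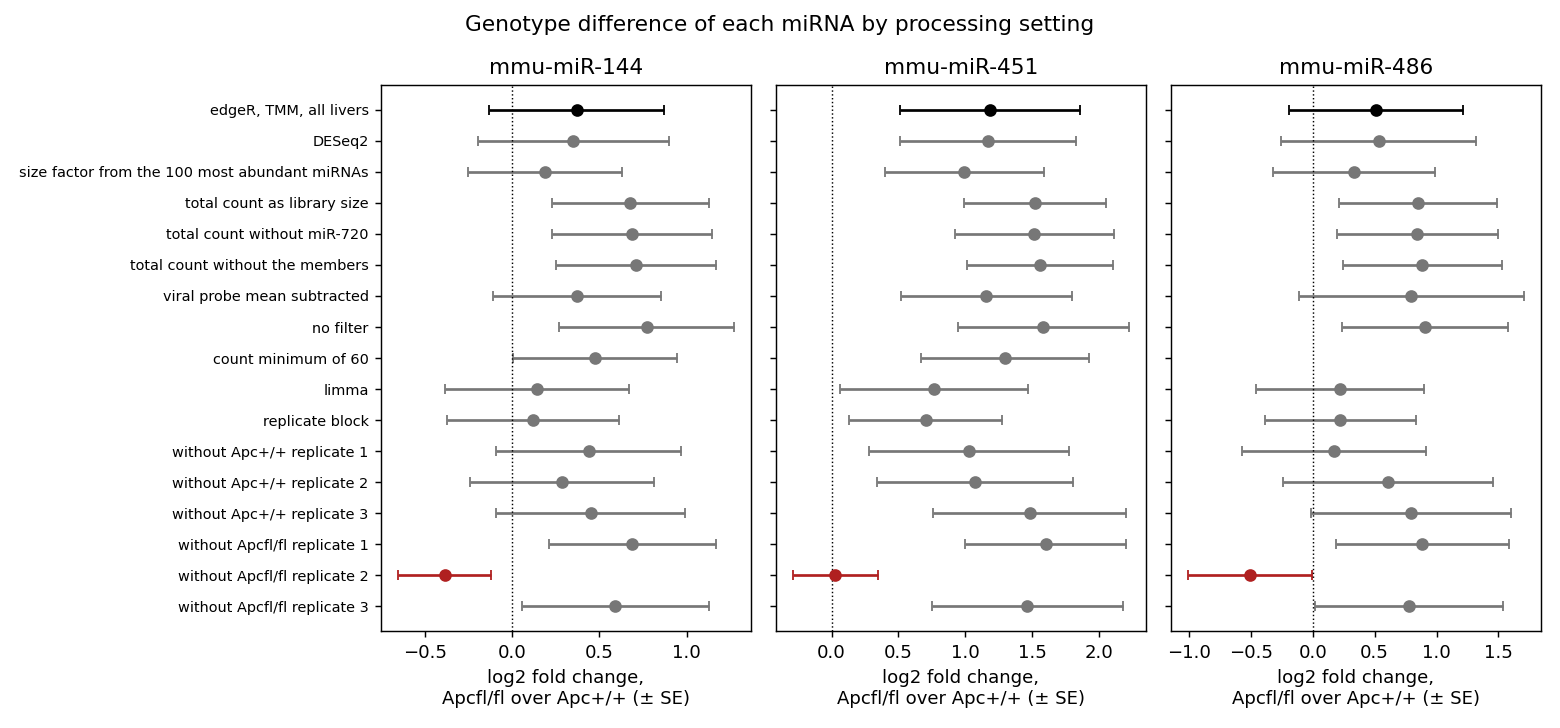
Log2 fold change of *Apcfl/fl* over *Apc+/+* liver (x axis, dot, with bars for ± 1 standard error) for each miRNA and each way of processing (y axis), with black for the TMM fit of all livers and red for the fit without *Apcfl/fl* mouse 2. The red dot lies near 0 for miR-451 (0.03) and below 0 for miR-144 (-0.39) and miR-486 (-0.51), and the count minimum of 60 gives no value for miR-486.

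That liver was high in other miRNAs too. Its normalised count was the highest of the 6 livers for 46 of the 174 tested miRNAs (26.4%), against 19 to 33 for each other liver. For 26 (14.9%), the 3 erythroid miRNAs included, it was at least 2 times the next liver, which held for 0 to 2 miRNAs in any other liver. Ranked by the rise over the mean of the *Apc+/+* livers, miR-451 was number 21, miR-486 number 27 and miR-144 number 29 of the 174 in *Apcfl/fl* mouse 2. Members of the imprinted miR-379 to miR-410 cluster were among the 26. MiR-495 had 386.6 in *Apcfl/fl* mouse 2 and 22.5 in the next liver, and miR-410 had 175.8 and 19.7. Of that cluster miR-154, miR-494 and miR-496 were highest in *Apc+/+* livers. What part these high counts have in the level of the 3 was not tested.

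As a gauge, the 3 miRNAs were summed in each liver. They made up 0.964%, 0.750% and 0.857% of the mouse miRNA counts of *Apc+/+* mice 1 to 3, while *Apcfl/fl* mice 1 to 3 had 0.918%, 4.18% and 1.38%. By counting error alone the share in *Apcfl/fl* mouse 2 lay between 4.06% and 4.31% and that in *Apcfl/fl* mouse 3 between 1.32% and 1.44% (95% Wilson intervals), both above every *Apc+/+* liver, of which the highest reached 1.03% at its upper bound. *Apcfl/fl* mouse 1, between 0.860% and 0.980%, lay within the *Apc+/+* range. The mean share of *Apc+/+* liver was 0.857% ± 0.107 (SD, n = 3), and *Apcfl/fl* liver had 2.16% ± 1.77 (SD, n = 3). The groups overlapped, and the exact two-sided permutation test of the log2 shares gave p = 0.2, where the smallest p possible is 0.1. MiR-451 alone made 67.4% to 83.4% of the sum. In *Apcfl/fl* mouse 3 its share (1.10%) exceeded every *Apc+/+* liver, whereas miR-144 (0.253%) lay under the highest *Apc+/+* liver (0.297%) and miR-486 (0.0299%) within the *Apc+/+* range. A share depends on the other miRNAs of the liver. The log2 difference of the summed share between genotypes was 1.03, and 0.79 with miR-122 left out of the total (p = 0.4, exact two-sided permutation). On the TMM scale the sum of *Apcfl/fl* mouse 3 was 1199, inside the *Apc+/+* range of 856.4 to 1404, while that of *Apcfl/fl* mouse 2 was 4561.

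MiR-451 and miR-144 come from 1 transcript, and their ratio within a liver does not depend on the scaling between libraries. For each count of miR-144 there were 2.19, 2.86 and 3.72 counts of miR-451 in *Apc+/+* mice 1 to 3, while *Apcfl/fl* mice 1 to 3 had 3.39, 5.83 and 4.33. Each probe has its own capture efficiency, so only the change of the ratio between livers can be read. The ratio of *Apcfl/fl* mouse 2 was the highest, with a 95% exact interval for counting error of 5.35 to 6.36, above the upper bound of every other liver (4.90 at most). The increase of miR-451 in that liver was thus larger than that of miR-144: against the mean of the *Apc+/+* livers miR-451 was 4.84 times, miR-486 3.07 times and miR-144 2.42 times as high. The mean ratio of *Apc+/+* liver was 2.92 ± 0.768 (SD, n = 3), and *Apcfl/fl* liver had 4.52 ± 1.23 (SD, n = 3). The log2 difference was 0.63 (95% interval -0.25 to 1.51), with overlapping groups (p = 0.2, exact two-sided permutation, smallest possible 0.1). It was the only pair tested, as miR-486 did not exceed the background limit in every liver. Without *Apcfl/fl* mouse 2 the log2 difference was 0.42.

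**Figure D3:**
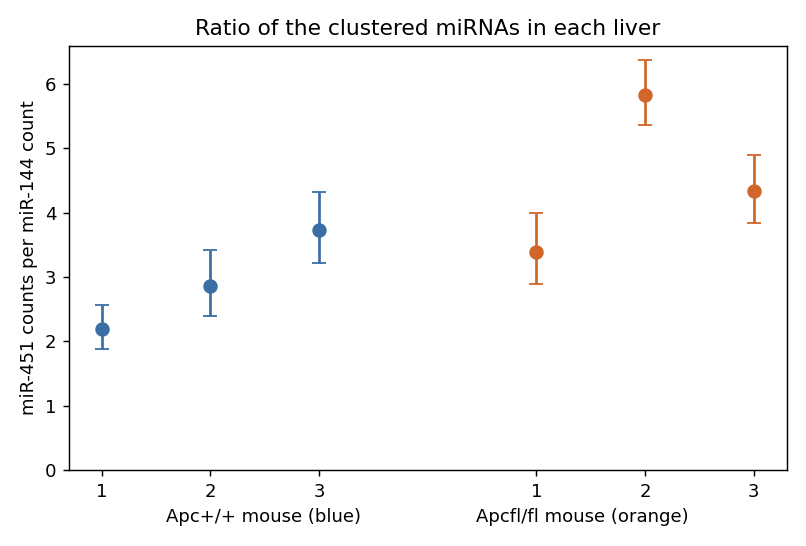
Counts of miR-451 per count of miR-144 (y axis, from 0) in each liver (x axis, mouse number), with bars for the 95% exact interval of counting error. The ratio runs from 2.19 to 3.72 in *Apc+/+* and from 3.39 to 5.83 in *Apcfl/fl* liver, so that the groups overlap.

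In the 4 livers where miR-486 exceeded the limit, miR-451 had 16.7 and 23.1 counts per count of miR-486 (*Apc+/+* mice 2 and 3) and 36.8 and 36.6 (*Apcfl/fl* mice 2 and 3). MiR-144 had 5.83, 6.21, 6.31 and 8.44 in the same order. Against these *Apc+/+* livers the ratio of miR-144 to miR-486 in *Apcfl/fl* mouse 2 was close and that of miR-451 to miR-486 was higher, while between *Apcfl/fl* mice 2 and 3 the latter was nearly equal and the former differed. In the livers left out, miR-451 had 36.7 (*Apc+/+* mouse 1) and 32.3 (*Apcfl/fl* mouse 1) counts per count of miR-486. MiR-144 had 16.8 and 9.53. The limit leaves out livers low in miR-486, where the ratio is high, so these ratios do not show a difference between the genotypes. All rest on 97.67 counts of miR-486 or fewer.

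To see which miRNAs varied most like miR-451, the SD over the 6 livers of the log2 ratio to miR-451 was taken for the other 173 tested miRNAs, a measure that is low for miRNAs that rise and fall together and is free of scaling. MiR-486 came first (0.47) and miR-144 next (0.49), where the median over the 173 was 1.19. A miRNA with the same count in every liver would score 1.08, the SD of the log2 count of miR-451 itself. The value for miR-486 includes the 2 livers where it lay under the background limit, so its place is less certain than that of miR-144. MiR-429 (0.58), miR-200b (0.61) and miR-200a (0.66), which form a cluster expressed in epithelial cells, followed with mean counts of only 25.0 to 40.5. All 5 had their highest normalised count in *Apcfl/fl* mouse 2, and the order rested on that liver. Without it miR-144 ranked 16 and miR-486 38 of 173, with SDs of 0.38 and 0.48 against a median of 0.65. A miRNA with the same count in every remaining liver would then score 0.63. With any other liver left out, miR-486 stayed within the first 3 and miR-144 within the first 5.

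**Figure D4:**
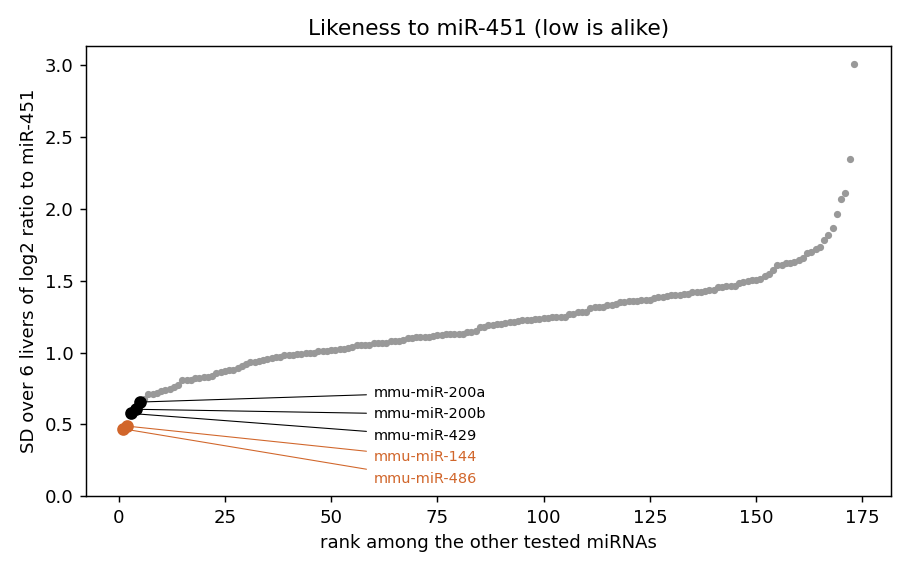
SD over the 6 livers of the log2 ratio to miR-451 (y axis, low is alike) for each of 173 tested miRNAs (dots) in order of rank (x axis), with miR-144 and miR-486 in orange and the next 3 in black. MiR-486 (0.47) and miR-144 (0.49) are the lowest of all.

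As a list, other miRNAs known to be abundant in red cells, most of which nearly every cell makes as well, did not move with the 3. Of 14 listed entries 10 were tested, 4 of them with a higher and 6 with a lower fitted level, 0 past the adjusted test, and with a median log2 fold change of -0.04 against 0.01 over all tested miRNAs. None of the 10 was highest in *Apcfl/fl* mouse 2. By normalised count miR-25 (405.0), miR-191 (132.7), miR-106b (73.1) and miR-93 (60.4) lay above every *Apc+/+* liver there. The other tested entries of the list did not. The 14 listed entries together made 7.24% of the counts of *Apcfl/fl* mouse 2, against 6.00% to 11.8% in the other livers. On the TMM scale their sum was lowest in that liver, 7894 against 9225 to 10213. MiR-22 alone made 5418 of the 7894. MiR-22, the most abundant, had a log2 fold change of -0.14, and miR-16, of the miR-15/16 cell cycle family, of -0.08. MiR-25 (1.004, edgeR adjusted p = 0.056) and miR-106b (0.86, edgeR adjusted p = 0.16) were higher and miR-19b (-0.70, edgeR adjusted p = 0.13) lower at an unadjusted p under 0.05. Of all tested miRNAs 13.8% were higher and 10.9% lower at that level, so these few calls set the list apart in neither direction. MiR-93, of the same cluster as miR-25 and miR-106b, had 0.22 (edgeR adjusted p = 0.72). MiR-92a, miR-182, miR-183 and miR-363 stayed under the background limit in every liver. Without *Apcfl/fl* mouse 2 the list had 6 with a higher and 4 with a lower level and a median of 0.18.

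Some miRNAs are known to fall as red cell precursors mature. All 5 listed were tested, 4 with a higher and 1 with a lower fitted level and 0 past the adjusted test, and their median log2 fold change was 0.80. Of the 5, 4 were highest in *Apcfl/fl* mouse 2, and miR-24, miR-222 and miR-221 ranked 8, 12 and 22 of 173 in likeness to miR-451. These miRNAs are among those highest in that liver, so the ranks are not a separate observation. MiR-222 exceeded the background limit in only 3 livers and miR-221 in 5. MiR-223 (log2 fold change 1.40, standard error 0.38, edgeR adjusted p = 0.072), a myeloid miRNA, did not overlap between the genotypes, and miR-24 had a log2 fold change of 0.80 (edgeR adjusted p = 0.24). MiR-155, of activated lymphoid and myeloid cells, stood at the lowest deposited value of 1 in the 3 *Apc+/+* livers and *Apcfl/fl* mouse 1 and had 78.33 and 58.33 counts in *Apcfl/fl* mice 2 and 3. Without *Apcfl/fl* mouse 2, 4 were tested, with a median of 0.47.

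White blood cells would come with blood, and their miRNAs were read beside the gauge. Of 9 leucocyte entries 7 were tested, 6 with a higher and 1 with a lower fitted level, 0 past the adjusted test, with a median log2 fold change of 0.44 (5 tested and a median of 0.81 without *Apcfl/fl* mouse 2). The list shares miR-223 and miR-155 with the one above. Its summed normalised count was 300.3, 589.2 and 422.5 in *Apc+/+* mice 1 to 3, while *Apcfl/fl* mice 1 to 3 had 416.5, 601.6 and 1047. *Apcfl/fl* mouse 3, not mouse 2, was the highest. *Apcfl/fl* mouse 2 came next, above all *Apc+/+* livers but close to *Apc+/+* mouse 2. The general leucocyte miRNA miR-142-3p had a log2 fold change of 0.12, and miR-146a of 0.68 (edgeR adjusted p = 0.33).

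Muscle, the other source of miR-486, left little trace. Of the 7 muscle entries 1, miR-1, exceeded the background limit in 1 liver, with 15.67 counts in *Apc+/+* mouse 3, and its count in *Apcfl/fl* mouse 2 was 3.67. The endothelial miR-126 made 2.69% of the counts in *Apcfl/fl* mouse 2 for both arms together, against 2.19% to 4.08% in the other livers, with log2 fold changes of -0.23 (3p) and -0.46 (5p). The 6 hepatocyte entries were all lower in *Apcfl/fl* liver, with a median log2 fold change of -0.69, 0 past the adjusted test and 5 at an unadjusted p under 0.05 (miR-122, miR-194, miR-101a, miR-101b and miR-802), where 10.9% of all tested miRNAs were lower at that level. Without *Apcfl/fl* mouse 2, 1 of the 6 passed the adjusted test of edgeR, as did 1.95% of the 154 then tested in that direction. Their summed normalised count was 8468, 14370 and 12669 in *Apcfl/fl* mice 1 to 3, while the *Apc+/+* livers had 25308 to 40151. *Apcfl/fl* mouse 2, with the most erythroid miRNA, was the highest of its genotype on this scale, but as a share of the counts *Apcfl/fl* mouse 3 was higher (14.6% against 13.2%). MiR-101a, with the seed nearest to that of miR-144, had a log2 fold change of -0.78 (edgeR adjusted p = 0.16) and its lowest normalised count, 58.6, in *Apcfl/fl* mouse 2.

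**Figure D5:**
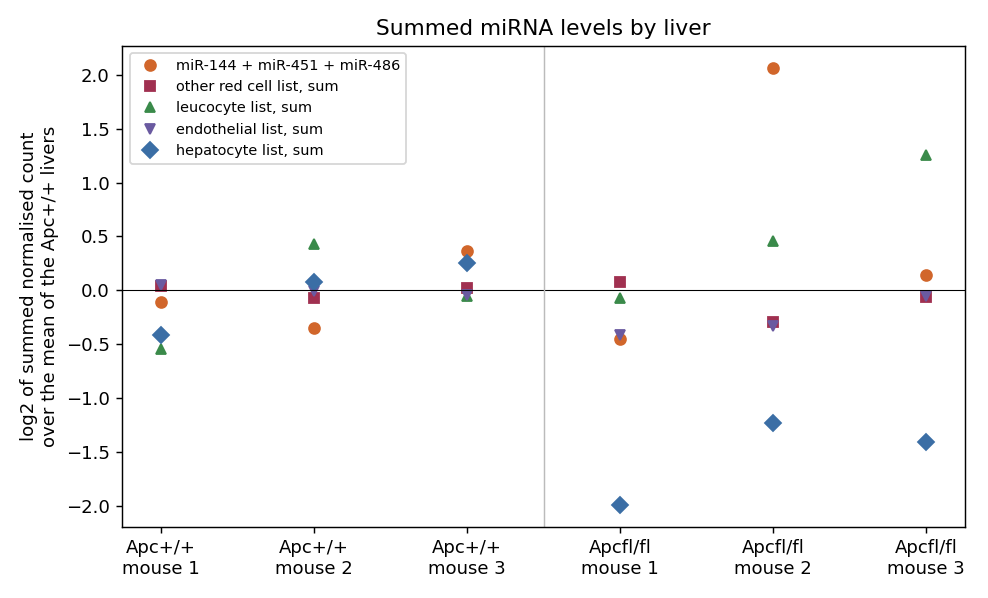
Log2 of the summed normalised count over the mean of the *Apc+/+* livers (y axis) in each liver (x axis) for the 3 erythroid miRNAs and 4 lists of miRNAs, one symbol for each. The erythroid sum stands apart in *Apcfl/fl* mouse 2, the leucocyte sum is highest in *Apcfl/fl* mouse 3, and the hepatocyte sum is lower in all *Apcfl/fl* livers.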

How the data were processed

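NanoString miRNA profiles of 3 *Apcfl/fl* and 3 *Apc+/+* livers were used, grouped by the sample titles. The authors deposited values per probe, not scaled between samples, with a floor of 1, treated here as estimated counts. They are not whole, and 595 of 595 probes above the floor had 1 decimal part in all livers, as a constant taken from each probe would leave. Such a step would touch low counts, ratios and counting intervals, and was not tested. The software and background step are not given in the sources used here, and 0 value columns lacked a sample. Counts were rounded and mouse miRNAs with a mean of at least 20 counts were fitted with edgeR 4.0.16 (TMM, quasi-likelihood test, prior count 2, R 4.3.3), with Benjamini-Hochberg adjustment over all 174 miRNAs tested. The test had been planned for whole counts. Viral probes gave the background limit and entered no test. The log2 ratios within a liver took an offset of 1 count. Exact permutation tests and intervals used SciPy 1.17.1, and intervals on counts cover counting error only. Within a genotype the sample titles tell the mice apart only by number, so p-values measure the spread between these samples. The 6 livers held 82942 to 133331 counts.

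Members, lists and named miRNAs (the 3, of each list the 2 most abundant and those at an unadjusted p under 0.05, the 5 most like miR-451, muscle entries above the limit and miR-720) were chosen with earlier results of these data known. MiR-142-3p, miR-93, miR-191, miR-221, miR-222 and 4 red cell entries under the limit were named after their values were seen. The lists were written from general knowledge. Alternatives were DESeq2 1.42.0, limma 3.58.1, size factors set on the top 100 miRNAs, total counts (all, without miR-720, without the 3), viral probe subtraction, no filter, a count minimum of 60, the replicate block, and each liver left out. The fits were also run on simulated whole counts with set fold changes in both directions. That simulation had no outlying liver and no values with decimal parts, so it does not show how the fits behave on these data. Fits of the lists without *Apcfl/fl* mouse 2 were added after the data were seen.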

Additional observations from a re-analysis of the deposited data

How the results depend on the processing

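Over the alternatives tried, no erythroid miRNA had an adjusted p under 0.05 in edgeR, DESeq2 or limma (0.10 to 0.97 for miR-451, 0.39 to 0.91 for miR-144, 0.45 to 0.89 for miR-486). MiR-451 kept its direction in all 16 alternatives, with an unadjusted p under 0.05 in 5, miR-144 in 15 of 16 and miR-486 in 14 of the 15 that gave a value. Both turned without *Apcfl/fl* replicate 2. With 1 liver left out the log2 fold change ranged from 0.03 to 1.60 for miR-451, from -0.39 to 0.69 for miR-144 and from -0.51 to 0.89 for miR-486. With the replicate block it was 0.70, 0.12 and 0.22, and with limma 0.77, 0.14 and 0.22. Same-numbered mice did not deviate together (correlations -0.06, -0.06 and 0.12). The titles give only a replicate number, and these correlations cannot show whether same-numbered samples were handled together. The ratio of miR-451 to miR-144 and the summed share kept their direction throughout (log2 differences of 0.42 to 0.82 and of 0.40 to 1.49 with 1 liver left out).

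Counts of miRNAs with an adjusted p under 0.05 (0 higher and 0 lower, with 24 and 19 at an unadjusted p under 0.05) were 20 higher and 9 lower with DESeq2, 1 and 6 with the size factor from 100 miRNAs, 16 and 1 on total counts, 18 and 3 on totals lacking miR-720, 16 and 1 on totals lacking the 3, 12 and 7 with viral probe subtraction, 12 and 6 with the count minimum of 60, 4 and 3 with the replicate block, and 0 with limma and with no filter. With 1 liver left out they ran from 0 to 11 higher and from 0 to 8 lower, both highest without *Apcfl/fl* replicate 3. The 3 erythroid miRNAs were not among these calls, and the cause of the differences was not tested. Leaving out a liver in the measure of likeness was added after the data were seen. MiR-486 lay under the background limit in 2 livers.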
